A study of Mus musculus with 38 samples.

Results

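The nuclear genes for the respiratory chain and ATP synthase were followed in small lung vessels of mice during chronic hypoxia and the return to normal air. Genes were taken by their platform symbol, which had to start with Nduf, Uqcr or Atp5, or with Cox followed by a number of 4 to 8. This gave 86 genes of 19087 named genes, measured by 120 array features. They comprised 36 genes of complex I, 7 assembly factors of complex I, 8 genes of complex III, 18 of complex IV and 17 of complex V. The rule reads the symbols and uses no measured value.

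All animals were C57BL/6J mice aged 12 to 18 weeks. Hypoxia lasted 21 days at an inspired oxygen fraction of 0.10, and the normoxia controls breathed a fraction of 0.21 for the same time. The groups were 23 mice killed after hypoxia, 11, 12, 12 and 10 hypoxic mice given back normal air (day 1, day 3, day 7 and day 14 in turn), and 8 normoxia mice. Vessels with an outer diameter of 50 to 100 µm were cut by laser from sections of 10 µm, so neighbouring lung tissue and cells of several types could be included. RNA of 2 mice was hybridised to each of 38 arrays, 1 in Cy3 and 1 in Cy5. Arrays are named here by the Cy3 condition, the Cy5 condition and a number, with the letter H for hypoxic mice, N for normoxia controls, and N followed by the day for mice that had returned.

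The respiratory chain passes electrons from NADH and succinate to oxygen and pumps protons across the inner mitochondrial membrane, and ATP synthase uses the resulting gradient to make ATP. Complex I accepts electrons from NADH, complex III passes them from coenzyme Q to cytochrome c, complex IV reduces oxygen, and complex V is ATP synthase. Several complex IV subunits exist in isoforms that are preferred by heart and skeletal muscle, lung or testis. In pulmonary arteries, mitochondria are known as part of oxygen sensing.

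Each value is a log ratio between conditions, and no level of a gene was available. The log base is not stated and was read as log10, so folds are given for key genes under log10 and under log2. The ratio was read as Cy5 over Cy3, the usual convention. If it runs the other way, every direction below turns round. Among arrays with hypoxia in the same dye, the lowest correlation over all features was -0.391, between N_H 1 and N1_H 3. The labels state the dyes, and these arrays compare hypoxia with different conditions, so the direction was kept. Array medians lay between -0.00306 and 0.00678 and array SDs between 0.0742 and 0.192, and the number of arrays limits the precision. Defining smooth muscle and endothelial markers were on the arrays, but ratios cannot show whether the labelled vessel tissue was enriched. In such bulk samples, fewer cells of a type and less RNA per cell cannot be told apart.

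Hypoxia was first compared with normoxia, to ask whether the chain's genes differed after long low oxygen. Only 3 of the 86 genes passed the test, and all 3 were lower in hypoxia: Cox7c of complex IV, Uqcrfs1 of complex III and Atp5c1 of complex V. The test was limma's moderated test over all arrays, adjusted over all 30653 entries with a threshold of 0.05. Over all entries 3.60% passed, 1.35% higher and 2.25% lower, so the share among these genes was near that background. None of the 36 complex I genes and none of the 7 assembly factors passed.

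Sequences of the 300 bases around the annotated start are shown for these 3 genes, since they are the genes that passed. They come from RefSeq on build GRCm38.p6, are written 5′ to 3′ along the gene's strand, and stand in lower case throughout, since none of the motifs counted below matched in them. The windows are chr13:86046746-86047045 on the minus strand for Cox7c, chr13:30545267-30545566 on the minus strand for Uqcrfs1 and chr2:10080383-10080682 on the minus strand for Atp5c1, 1 of 2 windows listed for that gene.
Cox7c: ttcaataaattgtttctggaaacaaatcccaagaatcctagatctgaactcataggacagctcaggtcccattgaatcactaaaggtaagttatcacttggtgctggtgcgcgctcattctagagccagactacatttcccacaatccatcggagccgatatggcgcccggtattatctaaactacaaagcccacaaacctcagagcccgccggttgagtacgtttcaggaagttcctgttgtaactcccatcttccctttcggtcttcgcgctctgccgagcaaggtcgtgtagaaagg
Uqcrfs1: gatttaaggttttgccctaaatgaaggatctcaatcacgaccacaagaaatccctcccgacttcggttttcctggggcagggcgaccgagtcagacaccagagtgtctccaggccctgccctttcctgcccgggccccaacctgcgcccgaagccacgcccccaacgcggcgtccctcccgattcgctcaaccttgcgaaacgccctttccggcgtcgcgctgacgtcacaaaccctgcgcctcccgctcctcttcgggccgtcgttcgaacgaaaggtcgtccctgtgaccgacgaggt
Atp5c1: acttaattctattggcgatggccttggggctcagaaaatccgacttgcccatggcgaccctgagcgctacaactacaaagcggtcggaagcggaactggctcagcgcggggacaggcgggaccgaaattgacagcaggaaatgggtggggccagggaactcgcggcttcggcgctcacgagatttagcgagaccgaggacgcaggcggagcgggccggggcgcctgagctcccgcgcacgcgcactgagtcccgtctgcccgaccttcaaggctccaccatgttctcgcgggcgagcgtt

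NRF1 is known as a regulator of many respiratory chain genes. The letters GCGCATGC, a core of its motif, lay in the windows of 11 of 72 member genes with a listed window (15.3%), against 824 of 27025 genes with a window (3.05%). This core replaced a longer form of the motif that allows any base in its middle. The longer form had been counted first, matched a larger share both of the members and of all genes, matched in the Atp5c1 window shown, and is not reported here. The ETS-type motif CCGGAAG was found for 16 of the 72 genes (22.2%), against 9.93% of all genes. The YY1 motif AAGATGGC was found for 10 of the 72 (13.9%), against 3.19%. The ERR motif AAGGTCA was found for 7 (9.72%), against 5.38%, and the hypoxia response core ACGTG for 17 (23.6%), against 21.8%. Both strands were searched for each, and the windows of the 3 genes held none of the 5 motifs. These counts describe letters in a window and say nothing of binding.

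Cox7c is a small nuclear subunit of cytochrome c oxidase. Its log ratio of hypoxia over normoxia was -0.141, -0.183, -0.255 and -0.00496 on the arrays N_H 1 to 4, and 0.0236, -0.0999, -0.0892 and -0.102 on the arrays H_N 1 to 4. It was below 0 on 7 of 8 arrays, H_N 1 being the exception. The fitted log ratio was -0.107 ± 0.0252 (SE, adjusted p = 0.0122 with limma). This is 1.28-fold lower in hypoxia if the base is 10 and 1.08-fold lower if it is 2. Only these 8 arrays pair hypoxia with normoxia, while the SE and p came from the fit over all arrays.

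Uqcrfs1 encodes the Rieske iron-sulfur protein, which carries electrons within complex III. It read -0.241, -0.214, -0.114 and -0.0822 on N_H 1 to 4, and 0.101, -0.0995, -0.0882 and -0.176 on H_N 1 to 4. The array H_N 1 was again the only one above 0. The fitted log ratio was -0.114 ± 0.0285 (SE, adjusted p = 0.0170 with limma), 1.30-fold lower under base 10 and 1.08-fold lower under base 2.

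Atp5c1 encodes the gamma subunit, the central shaft of ATP synthase. Its values were -0.212, -0.170, -0.115 and -0.102 on N_H 1 to 4, and 0.0491, -0.111, -0.0674 and -0.0505 on H_N 1 to 4. Here too 7 of 8 arrays were below 0 and H_N 1 was above it. The fitted log ratio was -0.0974 ± 0.0283 (SE, adjusted p = 0.0460 with limma), 1.25-fold lower under base 10 and 1.07-fold lower under base 2. Each of the 3 genes had 1 feature, and no gene of the 86 was lower on all 8 arrays, which 2.26% of all entries were.

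These 3 calls were sensitive to single arrays. None of them held when only the 8 direct arrays were fitted, nor once a score of alveolar markers entered as covariate. A score of heart muscle markers as covariate kept the calls of Cox7c at -0.0975 and Uqcrfs1 at -0.0953 (adjusted p = 0.0244 and 0.0361 with limma). In that fit Atp5c1 had -0.0887 and did not pass (adjusted p = 0.0787 with limma). With the 8 direct arrays alone the log ratios were unchanged. The design fixes this, since only these arrays held normoxia mice, 4 in each dye order. The adjusted p with these arrays alone was 0.140 for Cox7c, 0.154 for Uqcrfs1 and 0.0961 for Atp5c1 with limma. Cox7c did not pass without N_H 3 (adjusted p = 0.0769), and Uqcrfs1 did not pass without N_H 1 (0.0630), N_H 2 (0.0647) or H_N 4 (0.0528), all with limma. When each of the 38 arrays was dropped in turn, Atp5c1 kept its call in 22 fits, and of the 8 direct arrays it stood only the loss of H_N 1. In hypoxia over normoxia, alveolar type 1 markers had a median log ratio of 0.103 with 11 of 12 above 0 and 5 called higher, and alveolar type 2 markers 0.0862 with 12 of 12 above 0 and 6 called higher. Smooth muscle markers had a median of -0.0989 with 5 of 10 called lower. With the alveolar marker score as a covariate, the log ratios were -0.0750 ± 0.0380 for Cox7c, -0.0695 ± 0.0424 for Uqcrfs1 and -0.0575 ± 0.0424 for Atp5c1 (SE, adjusted p = 0.501, 0.604 and 0.690 with limma), and 37 of all entries passed instead of 1102. The 1 member that passed in that fit was Cox6b2, at -0.173 (adjusted p = 0.0313 with limma), against -0.0166 without the covariate. The alveolar score was above 0 on all 8 direct arrays, from 0.0363 to 0.146. It thus moved with the comparison itself, and this fit cannot separate the markers from hypoxia. The part of these markers in the result was not tested.

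**Figure D1:**
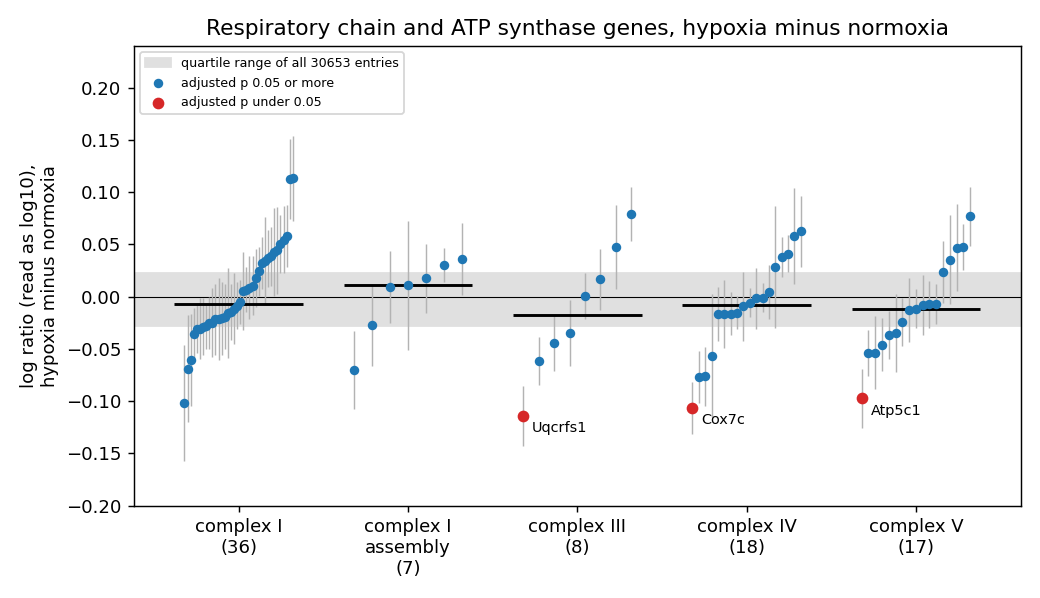
Log ratio of hypoxia minus normoxia (vertical axis, read as log10) for each of the 86 genes, grouped by complex, with SE bars and a black line at each group's median. The grey band runs from the lower to the upper quartile of all 30653 entries, and the 3 red points that passed the test lie near -0.1.

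By complex, the median log ratio of hypoxia over normoxia was -0.00683 for complex I, -0.0173 for complex III, -0.00754 for complex IV, -0.0114 for complex V and 0.0107 for the assembly factors, against -0.00397 for all entries. Above 0 were 17 of 36 complex I genes, 4 of 8 of complex III, 6 of 18 of complex IV, 5 of 17 of complex V and 5 of 7 assembly factors, against 45.2% of all entries. The median over all 86 genes was -0.00775. On the single arrays that median lay between -0.0497 on N_H 1 and 0.0536 on H_N 1, the array above 0 for all 3 called genes. The SD between arrays was 0.0308. The median was above 0 on 3 of 8 arrays, so the shift was smaller than the spread between arrays. Over the processing alternatives it ran from -0.0162 to 0.00306, and its sign was not constant. At an unadjusted p under 0.05 stood 6 genes higher and 7 lower of 86, against 6.96% higher and 9.8% lower among all entries (16.8% in all).

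In complex I, the accessory subunits Ndufc2 and Ndufb4 of the membrane arm had the largest log ratios. Ndufc2 lay between -0.0900 and 0.300 on the 8 arrays with a median of 0.114, above 0 on 7, and the fit gave 0.112 ± 0.0382 (SE, adjusted p = 0.0942 with limma). Ndufb4 lay between -0.175 and 0.305 with a median of 0.119, above 0 on 7, with a fitted 0.113 ± 0.0407 (SE, adjusted p = 0.119 with limma). In both, N_H 1 was the array below 0, and without it both passed, at adjusted p = 0.0340 for Ndufc2 and 0.0216 for Ndufb4. Each passed in only 1 of 51 alternatives, this one, which drops the array against the direction. Ndufs1, the largest iron-sulfur subunit, ran from -0.630 to 0.290 over the 8 arrays, with a fitted -0.102 ± 0.0551 (SE, adjusted p = 0.356 with limma). Ndufb9, another accessory subunit, had -0.0355 (adjusted p = 0.508). Among the assembly factors, Ndufaf5 had -0.0705 ± 0.0374 and Ndufaf4 0.0304 ± 0.0163 (SE), with adjusted p of 0.343 and 0.351. Ndufaf2 had -0.0275 and Ndufaf3 0.0360, neither past the test.

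In complex III, the small subunit Uqcr11 had values of -0.0570 to 0.264 with a median of 0.0763, above 0 on 6 of 8 arrays, and a fitted 0.0793 ± 0.0259 (SE, adjusted p = 0.0796 with limma). It passed in only 1 of 51 alternatives, the fit without N_H 4 (adjusted p = 0.0305). Uqcrb, which lies near the coenzyme Q site, had values from -0.141 to 0.00740, below 0 on 7 of 8 arrays, and a fitted -0.0615 ± 0.0232 (SE, adjusted p = 0.141). Uqcr10 had 0.0476 ± 0.0403. The core proteins Uqcrc1 and Uqcrc2 had -0.0350 and -0.0442, with adjusted p of 0.652 and 0.434. Genes of 1 complex thus stood on both sides of 0.

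In complex V, Atp5g2, 1 of the genes for the membrane ring subunit c, was above 0 on 8 of 8 arrays, between 0.00571 and 0.171. Its fitted log ratio was 0.0768 ± 0.0280 (SE, adjusted p = 0.125 with limma), and 1.83% of all entries were above 0 on every array. The assembly factor Ndufaf4 was the only other one of the 86 genes above 0 on all 8. Atp5g1 and Atp5g3 encode the same mature subunit and had -0.0127 and -0.0459. The catalytic head subunit genes Atp5a1 and Atp5b had 0.0472 ± 0.0221 and 0.0236 ± 0.0301 (SE). The 3 features of Atp5a1 ran from -0.0522 to 0.157, and the highest of them passed alone (adjusted p = 0.0360 with limma). Atp5md, a small membrane subunit, had -0.0539 ± 0.0216 (SE, adjusted p = 0.173). In all, 23 of the 86 genes had several features and 13 of these held both signs.

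**Figure D2:**
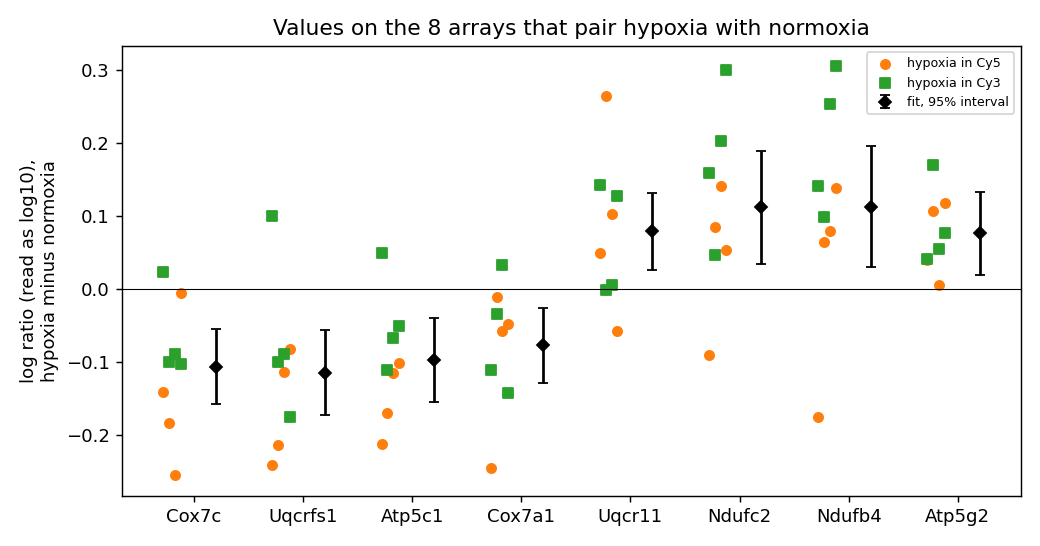
Log ratio of hypoxia minus normoxia (vertical axis, read as log10) on the 8 arrays that pair both groups for 8 genes, with circles for hypoxia in Cy5, squares for hypoxia in Cy3, and diamonds for the fit with its 95% interval. Of Cox7c, Uqcrfs1 and Atp5c1, 7 of 8 arrays lie below 0, and of Atp5g2 all 8 lie above 0.

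The complex IV isoforms were followed in every comparison. Cox4i2, the isoform known from lung and from hypoxic induction, had values of hypoxia over normoxia between -0.0225 and 0.113, above 0 on 6 of 8 arrays, and a fitted 0.0377 ± 0.0190 (SE, adjusted p = 0.312 with limma). Its common counterpart Cox4i1 had 0.00442 ± 0.0261. The muscle isoform Cox7a1 was below 0 on 7 of 8 arrays, from -0.245 to 0.0325, with a fitted -0.0770 ± 0.0253 (SE, adjusted p = 0.0821 with limma), while its counterpart Cox7a2 had -0.00167 ± 0.0294. The difference between the 2 isoforms was not tested. Cox7a1 passed in only 1 of 51 alternatives, the fit without H_N 3 (adjusted p = 0.0457). Cox8b, the muscle form of subunit 8, had 0.0626 ± 0.0340 and Cox8a -0.00943 ± 0.0329. Cox6b1 and Cox6b2 had 0.0283 and -0.0166, Cox6a1 had -0.0154, Cox8c had -0.00565 and Cox7a2l 0.0582. Ndufa4, first assigned to complex I and now known as a complex IV subunit, had -0.00483. By its symbol it is counted with complex I in all counts and medians here. Cox6c, a small subunit without such a pair here, had 0.0413 ± 0.0176 (SE, adjusted p = 0.209).

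Cox6a2, the heart and skeletal muscle form of subunit 6a, varied widely among arrays. Its values of hypoxia over normoxia were -0.386, -0.0887, -0.159 and 0.238 on N_H 1 to 4, and 0.0739, 0.0536, 0.146 and -0.329 on H_N 1 to 4. On each side of 0 stood 4 arrays, and the fit gave -0.0564 ± 0.0592 (SE, adjusted p = 0.709 with limma). Markers of heart muscle, which also sheathes large pulmonary veins, differed on the same arrays: the median log ratio of 14 such genes was -0.288 on N_H 1 and -0.266 on H_N 4, both as hypoxia over normoxia, and 0.223 as day 3 over hypoxia on H_N3 1, with the dye effect removed as in the gene values. Over all 38 arrays, with values as Cy5 over Cy3 and the dye effect left in, Cox6a2 correlated with this median at Pearson r = 0.796 (permutation p = 1e-05, the smallest that the permutations can give, adjusted over 13 isoform genes 0.00013) and Spearman rho = 0.461 (permutation p = 0.00395, adjusted 0.0513). Without H_N 4 and H_N3 1, the arrays farthest from the middle, r was 0.655. Cox7a1 gave r = 0.573 (permutation p = 0.00031, adjusted 0.00201), rho = 0.390 (permutation p = 0.0162, adjusted 0.105), and r = 0.418 without the same arrays. The other 11 genes had r between -0.144 and 0.346, none past an adjusted p of 0.05, and Cox4i1 had r = 0.0108 without these arrays. With the marker median as a covariate, the log ratio of hypoxia over normoxia was 0.0134 ± 0.0384 for Cox6a2 and -0.0558 ± 0.0220 for Cox7a1 (SE, adjusted p = 0.914 and 0.158 with limma). The part of heart muscle in these values was not tested beyond this.

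**Figure D3:**
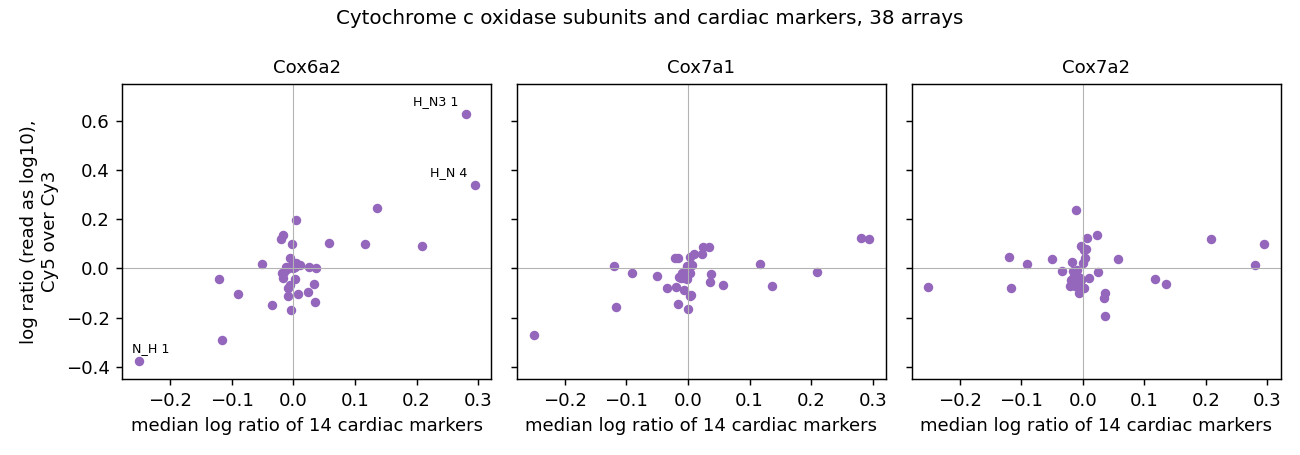
Log ratio of Cy5 over Cy3 (vertical axis, read as log10) of Cox6a2, Cox7a1 and Cox7a2 against the median log ratio of 14 cardiac marker genes, 1 point for each of 38 arrays. Cox6a2 correlated with the marker median at Pearson r = 0.796 and Spearman rho = 0.461, with N_H 1, H_N 4 and H_N3 1 at the ends. Without H_N 4 and H_N3 1, r was 0.655.

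The return to normoxia was compared with hypoxia at each day. No member gene passed the test on day 1, 3, 7 or 14, and hardly any entry did: 0%, 0.013%, 0.0163% and 0% in order of days. At an unadjusted p under 0.05 stood 4, 5, 2 and 5 member genes in the same order, against 3.97%, 9.22%, 6.48% and 4.03% of all entries. In the fit, the 4 comparisons share the hypoxia mice.

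Among complex I assembly factors, Ndufaf2, a chaperone of late assembly, had the smallest p on days 1 and 3. On day 1 over hypoxia it read 0.0644, 0.283, 0.0794 and -0.139 on the 4 direct arrays, with a fitted 0.112 ± 0.0390 (SE, adjusted p = 1.00 with limma). On day 3 it read 0.201, 0.124, 0.251 and 0.0820, above 0 on all 4 as were 7.62% of entries, with a fitted 0.125 ± 0.0379 (SE, adjusted p = 0.304 with limma). Of complex I itself, Ndufc1 had -0.0800 ± 0.0267 on day 3 (SE, adjusted p = 0.344) and Ndufs4 0.0681 ± 0.0301 on day 1 (SE), Ndufs4 being needed for the complex's stability.

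In complex III, Uqcr11 was below 0 on all 4 direct arrays of day 1 over hypoxia, at -0.0897, -0.0626, -0.133 and -0.0323, with a fitted -0.0709 ± 0.0259 (SE, adjusted p = 1.00 with limma). Over all entries 6.79% were below 0 on every one of these arrays. Uqcrc2 was above 0 on all 4, as were 7.54% of entries, with a fitted 0.0616 ± 0.0270 (SE). On day 7, Uqcrq, another small subunit, was above 0 on all 4 direct arrays, between 0.0145 and 0.128, as were 6.67% of entries, with a fitted 0.0488 ± 0.0215 (SE, adjusted p = 0.722). The other named genes of complex III did not pass either.

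In complex V, Atp5a1 had the smallest p of all members on day 7 and on day 14, with 0.0598 ± 0.0217 and 0.0614 ± 0.0236 over hypoxia (SE, adjusted p = 0.623 and 1.00 with limma). On day 7 its 4 direct arrays read -0.0210, 0.103, 0.142 and -0.0452, and they did not share a sign. On day 3, Atp5j2 had 0.0918 ± 0.0361 and Atp5b -0.0557 ± 0.0293 (SE). On day 14, 16 of 17 complex V genes lay above 0 relative to hypoxia, with a median of 0.0170, against 51.6% of all entries and a median of 0.000995. The complex V median was 0.0252, 0.0439 and 0.00853 on the 3 arrays H_N14 1 to 3, all with hypoxia in Cy3, and none of the 17 genes passed. The median of complex I assembly factors was also above 0 on all 3 (0.00957 to 0.0325). So was that of assembly factors of complexes III, IV and V (0.000566 to 0.0278). Medians of complexes I, III and IV were above 0 on 2, 2 and 1 of these arrays. With the alveolar marker score as a covariate, 12 of the 17 lay above 0. On the same arrays the median of 8 airway epithelial markers was 0.0327, 0.0694 and 0.0351, that of 12 endothelial markers -0.0421, -0.0944 and -0.0150, and that of 10 smooth muscle markers -0.00748, -0.0572 and -0.00582. Alveolar type 1 and cardiac marker medians were also below 0 on all 3. In the fit, 6 of the 8 airway markers lay above 0 with a median of 0.0552, and none passed. Against day 7, 15 of 17 lay above 0 on day 14, with a median of 0.0215 and array medians from 0.0159 to 0.0633, against 49.0% of all entries. On these 4 arrays the citric acid cycle median was also always above 0 (0.00186 to 0.0588). So was that of assembly factors of complexes III, IV and V (0.00635 to 0.0144). Medians of complexes I, III and IV were above 0 on 3, 2 and 2 of them, and that of coenzyme Q genes on 0. Against day 1, 16 of 17 lay above 0 in the fit, with a median of 0.0203, against 53.4% of all entries, while the 3 direct arrays gave medians of 0.0672, -0.0220 and -0.0482. The airway marker median on these arrays was 0.107, -0.0434 and -0.108, with the same signs, whereas on the 4 arrays of day 14 over day 7 it was above 0 on 2. The part of these markers in the complex V values was not tested. In the fit these 3 comparisons share the day 14 mice, while each direct array held a different day 14 mouse.

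The medians of complexes I, III and IV lay between -0.00710 and 0.0155. In order of days 1, 3, 7 and 14 over hypoxia, complex I had -0.00499, -0.00261, -0.00710 and 0.00480, complex III 0.00932, 0.00393, 0.0155 and 0.0103, and complex IV -0.000617, 0.00414, 0.000861 and 0.0141. The 7 assembly factors of complex I had 0.00106, 0.0603, 0.00442 and 0.0169 in the same order, and their array medians on day 3 were 0.0615, -0.0433, 0.0526 and -0.0368, on both sides of 0. For the complexes too the medians of single arrays spread more widely, for complex IV from -0.0356 to 0.0566 on day 3. On H_N3 1, the array with a cardiac marker median of 0.223, the median of all 86 genes was 0.0564, and on the other 3 day 3 arrays it was -0.0288, -0.0183 and -0.00963. The isoform genes of complex IV ranged from -0.0574 to 0.0431 after 1 day, from -0.0509 to 0.0486 after 3 days, from -0.0578 to 0.0210 after 7 days and from -0.0484 to 0.0770 after 14 days. None passed.

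**Figure D4:**
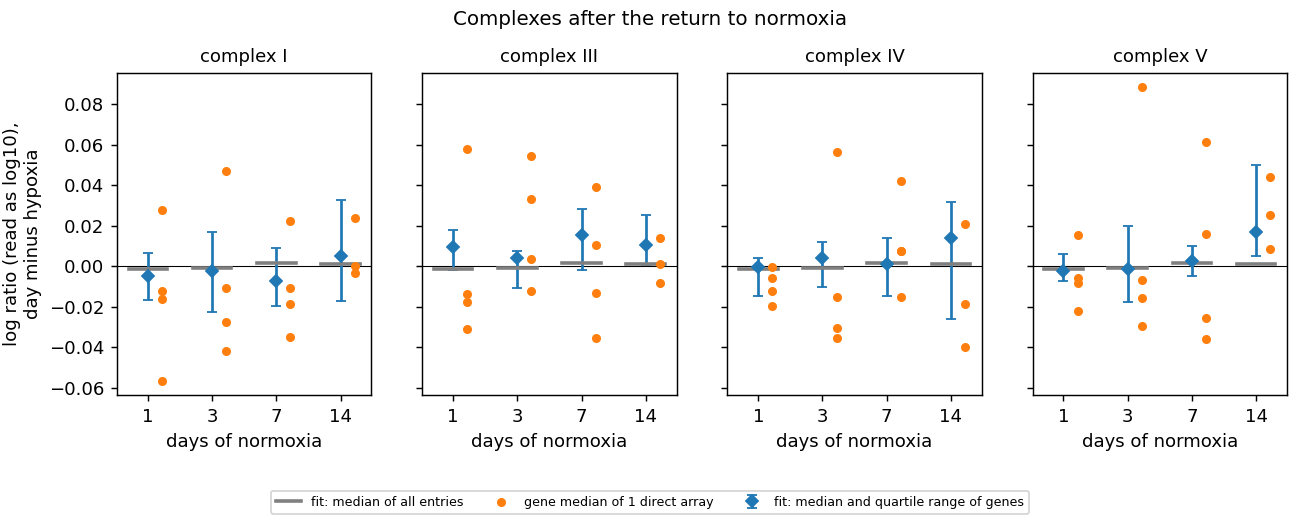
Log ratio of day minus hypoxia (vertical axis, read as log10) for complexes I, III, IV and V after 1, 3, 7 and 14 days of normoxia, with diamonds for the fitted median over genes, bars between the quartiles of genes, orange points for the gene median on each direct array, and grey dashes for the fitted median of all entries. Complex V has its highest fitted median, 0.0170, on day 14.

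Steps between days gave no called member either. Entries called were 0% for day 3 over day 1, 0.00979% for day 7 over day 3, 0% for day 14 over day 7 and 0% for day 14 over day 1. The smallest p belonged to Cox7b2, a paralogue of the complex IV subunit Cox7b, for day 14 over day 7. Its 4 arrays read 0.0122, 0.0801, 0.0192 and 0.114, all above 0 as were 6.16% of entries, and the fit gave 0.0588 ± 0.0150 (SE, unadjusted p = 0.000381, adjusted p = 1.00 with limma). For day 7 over day 3, Cox6a1 was above 0 on all 4 arrays, between 0.0435 and 0.0842, as were 6.07% of entries, with a fitted 0.0419 ± 0.0167 (SE, adjusted p = 0.387). Ndufc1 was above 0 on the same 4 arrays, with 0.0670 ± 0.0287 (SE). For day 3 over day 1, Atp5md had -0.0581 ± 0.0226 (SE). Its direct arrays read -0.114 on N1_N3 2 and 0.000646 to 0.00948 on the other 3, and without N1_N3 2 the fit gave -0.0493.

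The days of return were also set against normoxia, through the shared hypoxia group, since no array pairs them directly. No member passed on day 1, 3, 7 or 14, against 0.111%, 0.783%, 0.0228% and 0.0261% of all entries. The 3 genes called in hypoxia had negative log ratios here. Each is the hypoxia over normoxia value plus the change from hypoxia to that day. These genes were picked by that first value, so the signs are no separate evidence that a decrease lasted. Cox7c had -0.102, -0.0961, -0.109 and -0.0720 over normoxia on days 1, 3, 7 and 14, with SEs of 0.0352 to 0.0370 and adjusted p of 0.179 to 0.602 with limma. Uqcrfs1 had -0.113, -0.109, -0.0856 and -0.0899, with SEs of 0.0397 to 0.0417 and adjusted p of 0.174 to 0.550. Atp5c1 had -0.113, -0.114, -0.101 and -0.0924, with SEs of 0.0395 to 0.0415 and adjusted p of 0.153 to 0.505. The missed threshold does not show that these genes were back at the normoxia level, and the SEs were larger than the 0.0252 to 0.0285 of the hypoxia comparison. The median over the 86 genes was -0.00234, 5.2e-05, -0.00693 and 0.00675 on these days. For complex V it was -0.0147, -0.0150, -0.0139 and -0.00266.

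Related genes of the pathway were described by lists, whose counts stand against 1.35% of all entries called higher and 2.25% called lower. In hypoxia over normoxia all 4 complex II genes, whose enzyme feeds electrons from succinate, lay above 0 with a median of 0.0585, from 0.0307 for Sdha to 0.0946 for Sdhb, and none passed. Of 13 citric acid cycle genes 9 lay above 0 and none passed, where 45.2% of all entries lay above 0, with Fh1 at -0.122 and Suclg1 at 0.0769. Cytochrome c (Cycs) had -0.0785 and cytochrome c1 (Cyc1) 0.0469. Of 11 coenzyme Q genes 1 passed, the kinase-like Coq8b at 0.166 ± 0.0317 (SE, adjusted p = 0.00249 with limma). Of 31 assembly factors of complexes III, IV and V none passed, and the copper chaperone Cox17 had 0.0577 (adjusted p = 0.0875). Of 14 regulators of mitochondrial biogenesis 1 passed, the mitochondrial RNA polymerase Polrmt, which was lower at -0.127 ± 0.0221 (SE, adjusted p = 0.00106 with limma). Of 78 mitochondrial ribosomal genes 1 passed higher, Mrpl30 at 0.161, and 2 lower, Mrps22 at -0.160 and Mrpl16 at -0.125. Of 72 cytosolic ribosomal genes 3 passed lower, Rps16, Rpl39 and Rps27l, at -0.118, -0.105 and -0.0963. Of 17 glycolysis genes none passed, and of 14 targets of hypoxia inducible factors 1 did, Vegfa at 0.125 (adjusted p = 0.0414 with limma). The subunits encoded in mitochondrial DNA were not analysed here.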

How the data were processed

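The deposited values are log ratios of Cy5 and Cy3 per feature, read here as log10 and not stated to be so. Per the submitters' processing notes, limma was part of the authors' work; how background was corrected and arrays normalized is not given in the sources used here. Of 45220 features, 2 with missing values were left out. Symbols came from the platform annotation, and features of 1 gene were averaged, giving 30653 entries. The model, run in R 4.3.3 with limma 3.58.1 (lmFit, eBayes), took in 38 arrays, a dye intercept, 5 condition terms and left 32 residual degrees of freedom. All tests were two-sided, with Benjamini-Hochberg adjustment over all entries of a comparison. Direct values had the dye effect removed and were turned so that the later or exposed condition is on top. The script was tested on simulated data. Correlations used 100000 permutations.

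The members and lists were chosen with earlier results of these data known. Named genes were the called members, the smallest p per complex and direction, and the complex IV isoforms. Cell type scores were medians of marker log ratios. The tests do not depend on the log base. Replicates are single mice per the labels. Slides, scan dates and brightness were not used here, so batches were not tested. Alternatives left out the dye term or single arrays, changed scaling, centring, feature choice, filter and weights, or added a block or a marker score.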

Additional observations from a re-analysis of the deposited data

Results flagged for a closer look

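Among 166 gene or median values on groups of 4 to 8 direct arrays, 7 had 1 array far from the others by a gap test at the 95% level, and chance alone picks about 1 in 20 groups. Uqcrfs1, as hypoxia over normoxia, read 0.101 on H_N 1, and -0.241 to -0.0822 on the other 7 arrays. Ndufs3, as day 7 over hypoxia, read -0.404 on H_N7 1, and -0.0270 to 0.0185 on the other 3 arrays. Atp5md, as day 3 over day 1, read -0.114 on N1_N3 2, and 0.000646 to 0.00948 on the other 3 arrays. Cox6a2, as day 3 over day 1, read 0.0928 on N1_N3 1, and -0.00455 to 0.00487 on the other 3 arrays. Ndufaf2, as day 7 over day 3, read -0.445 on N3_N7 2, and -0.0285 to 0.00492 on the other 3 arrays. Atp5j2, as day 7 over day 3, read -0.490 on N3_N7 2, and -0.00840 to 0.0282 on the other 3 arrays. Cox8b, as day 14 over day 7, read -0.151 on N7_N14 1, and 0.0101 to 0.0324 on the other 3 arrays. Uqcrfs1 is the only one of these that passed the test, and without H_N 1 its log ratio was -0.146 (adjusted p = 0.00239 with limma). The array N3_N7 2 stands apart for both Ndufaf2 and Atp5j2.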

How the results depend on the processing

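No called value changed its sign under any of 51 alternatives, of which 38 left out 1 array each. Many of these fits could not have turned the sign. Normoxia mice were only on the 8 arrays that pair hypoxia with normoxia, 4 in each dye order. Leaving out any other array therefore cannot move the log ratio of hypoxia over normoxia. The fits without the dye term, with the replicate block and with direct arrays alone also gave the same log ratios for the called genes. The count of member genes called in hypoxia over normoxia, 3 as reported, was 1 with the alveolar marker score as covariate (Cox6b2, lower, none of the 3) and 0 with the direct arrays alone, whose fit rests on 8 arrays. It lay between 1 and 3 when single arrays were left out, and was 1 without N_H 2, N_H 3 or H_N 4. With the replicate block it was 2, since Atp5c1 did not pass (adjusted p = 0.0567 with limma). Same-numbered arrays had a median residual correlation of -0.016 over 248 pairs (lowest -0.378), against -0.0244 over 426 other pairs. Whether same-numbered arrays share a batch was not tested. The block changed no other count of called members. Over 13 other alternatives, Cox7c and Uqcrfs1 passed in 11 and Atp5c1 in 6. Counts in the other comparisons stayed at 0 and member medians moved by less than the array spread. Direct arrays alone could not be fitted for day 14 over hypoxia. Slide, scan date and brightness were not used here, so dim features may be included, and the log base and ratio direction are unstated.

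Values of genes that did not pass changed sign in 292 of 10073 refits; the cause was not tested. Uqcrb at 0.000381, Ndufaf3 at -0.00760, Cox4i1 at -0.0583, Cox6b1 at -0.152 and Cox7a2l at -0.00983 for hypoxia over normoxia, Cox6a2 at 0.0112, Cox6b2 at 0.0280 and Cox8b at -0.00396 for day 1 over hypoxia, Cox6b1 at 0.00511 and Cox8b at -0.00373 for day 3 over hypoxia turned with alveolar marker score as covariate. Cox6b2 at 0.0283, Cox6a2 at 0.0340 and Cox7a2l at 0.00961 for day 7 over hypoxia, Cox6a2 at 0.00560 and Cox6b2 at 0.00588 for day 14 over hypoxia, Ndufa4 at 0.000426 for day 3 over day 1 turned with it too. Cox4i1 at -0.000137, Cox6a1 at -0.00276 and Cox6b2 at -0.0224 for day 14 over day 7, Cox8a at 0.00240 for day 14 over day 1 turned with it too. Cox6a2 at 0.0134 and Cox7a2 at 0.0107 for hypoxia over normoxia, Cox4i1 at -0.00135, Cox6b1 at -0.00441, Cox6b2 at 0.000744 and Cox8b at -0.00403 for day 1 over hypoxia, Cox6a2 at -0.00287, Cox7a1 at -0.00303 and Cox8b at -0.00469 for day 3 over hypoxia turned with cardiac marker score as covariate. Cox8b at -0.000657 for day 3 over day 1, Cox8b at 0.00409 for day 7 over day 3, Cox6a2 at 0.0133 for day 14 over day 1 turned with it too. Cox7a2 at 0.00176 for hypoxia over normoxia, Cox4i1 at -0.00263, Cox6b1 at -0.00240 and Cox8b at -0.00589 for day 1 over hypoxia, Cox8b at -0.00153 for day 3 over hypoxia turned with arrays scaled to 1 median absolute value. Cox7a1 at -0.00183 and Ndufa4 at 0.00469 for day 7 over day 3, Cox7a2 at 0.000312 and Cox8c at 0.000593 for day 14 over day 7, Cox8a at 0.00375 for day 14 over day 1 turned with it too. Cox7a2 at 0.000619 for hypoxia over normoxia, Cox8c at 0.000456 for day 14 over day 7 turned with arrays centred on their medians. Cox7a2 at 0.00384 for hypoxia over normoxia, Cox4i1 at -0.0114, Cox6b1 at -0.0114 and Cox8b at -0.0126 for day 1 over hypoxia, Cox6b2 at -0.00420, Cox7a2l at -0.00750, Cox8b at -0.00250 and Cox8c at -0.00189 for day 3 over hypoxia turned with array quality weights. Cox7a1 at -0.000234 for day 7 over hypoxia, Cox4i1 at 0.00325, Cox7a1 at -0.00441, Cox8a at 0.00383 and Ndufa4 at 0.0110 for day 7 over day 3, Cox7a2 at 0.00525 and Cox8c at 0.000728 for day 14 over day 7 turned with it too. Cox8a at 0.00777 for day 14 over day 1 turned with it too. Cox4i2 at -0.0213, Cox7a1 at 0.0101, Cox8a at 0.0105, Cox8b at -0.0135 and Cox8c at -0.00455 for day 1 over hypoxia, Cox8a at -0.0185 and Cox8b at -0.0145 for day 3 over hypoxia, Cox5b at -0.00117 and Cox8b at 0.0363 for day 7 over hypoxia turned with direct arrays alone. Ndufaf1 at 0.0210 and Cox6b2 at -0.0183 for day 3 over day 1, Cox7a2l at 0.0315 for day 7 over day 3, Atp5o at 0.00602, Cox6a2 at 0.0430, Cox6b2 at -0.00708, Cox7a2 at 0.0392 and Cox8a at 0.00101 for day 14 over day 7 turned with it too. Uqcr11 at -8.17e-05, Ndufaf3 at 0.0224, Ndufaf1 at -0.0254, Cox7a2 at -0.00885 and Cox8c at -0.000620 for day 14 over day 1 turned with it too. Cox6a1 at -0.000914, Cox6b1 at -0.0169 and Cox6b2 at 0.00437 for day 1 over hypoxia, Cox8c at 0.000434 for day 14 over day 7 turned with replicate block. Cox8b at -0.00269 for day 1 over hypoxia, Cox8a at -8.21e-05 and Cox8b at 0.00207 for day 7 over hypoxia turned with no dye term. 

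Leaving out single arrays gave ranges across 0 for the genes whose sign turned at least once. Cox4i1 -0.00583 to 0.0106, Cox6b2 -0.0456 to 0.0201, Cox7a2 -0.0293 to 0.0134, Cox8a -0.0376 to 0.00737, Ndufa4 -0.0138 to 0.000597 were the ranges in hypoxia over normoxia. Cox4i1 -0.0136 to 0.0210, Cox4i2 -0.000834 to 0.0170, Cox6a1 -0.00583 to 0.00754, Cox6a2 -0.0462 to 0.0188, Cox6b1 -0.0215 to 0.0134, Cox6b2 -0.0130 to 0.0133, Cox8b -0.0200 to 0.0127 were the ranges in day 1 over hypoxia. Ndufa4 -0.00883 to 0.0197 were the ranges in day 1 over hypoxia. Cox4i1 -0.00914 to 0.0402, Cox6a2 -0.0305 to 0.0678, Cox7a1 -0.00599 to 0.0233, Cox7a2l -0.0212 to 0.0281, Cox8a -0.00471 to 0.0267, Cox8b -0.0161 to 0.0163, Cox8c -0.00766 to 0.0144 were the ranges in day 3 over hypoxia. Ndufa4 -0.00270 to 0.0180 were the ranges in day 3 over hypoxia. Cox4i1 -0.00480 to 0.0190, Cox4i2 -0.0197 to 0.00171, Cox6a2 -0.0517 to 0.00465, Cox6b1 -0.0171 to 0.0652, Cox8a -0.0151 to 0.0174, Cox8b -0.0486 to 0.0168, Ndufa4 -0.00383 to 0.0174 were the ranges in day 7 over hypoxia. Cox4i2 -0.0211 to 0.00246, Cox6a2 -0.0520 to 0.0144, Cox7a2l -0.000669 to 0.04996 were the ranges in day 14 over hypoxia. Cox7a2 -0.00820 to 0.0161, Cox8b -0.00996 to 0.0169, Cox8c -0.00788 to 0.00616, Ndufa4 -0.00990 to 0.0102 were the ranges in day 3 over day 1. Uqcrc1 -0.0446 to 0.00404, Cox4i1 -0.0371 to 0.00434, Cox6b1 -0.00402 to 0.158, Cox7a1 -0.00623 to 0.0176, Cox8a -0.0417 to 0.0221, Cox8b -0.0326 to 0.0149, Ndufa4 -0.0218 to 0.0201 were the ranges in day 7 over day 3. Cox4i2 -0.0126 to 0.00820, Cox6a1 -0.0183 to 0.00831, Cox6a2 -0.0309 to 0.0161, Cox6b2 -0.0144 to 0.0303, Cox7a2 -0.0236 to 0.00523, Cox8c -0.00783 to 0.0150 were the ranges in day 14 over day 7. Atp5o -0.0246 to 0.00154, Cox6a2 -0.0390 to 0.00482, Cox7a2l -0.0544 to 0.0120, Cox8a -0.0143 to 0.0120 were the ranges in day 14 over day 1.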
